A study of Danio rerio with 10 samples.

Results

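The genes described here are 10 members of the Nrf2 pathway and of the first line of antioxidant enzymes, nfe2l2a, keap1a, keap1b, nqo1, hmox1a, gclc, gclm, prdx1, sod1 and cat. They were taken from the platform's annotation as the probes whose single gene symbol was exactly 1 of these names, which gave 10 probes, 1 for each gene, of 75212 probes and 19260 genes in all. The samples were testes of 1-year-old male zebrafish (Danio rerio) of the wild type AB strain, measured on Affymetrix whole-transcript arrays, 1 array per sample. The TCDD group (5 males) had been placed for 1 h in water with TCDD at 50 pg/ml, first at 3 weeks and then at 7 weeks after fertilization. TCDD is a dioxin, and its receptor is the aryl hydrocarbon receptor. The DMSO group (5 males) had been given the solvent alone at the same ages. The comparison asks whether the early exposure is followed by a different level of these genes in the adult testis.

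Nrf2, a form of which nfe2l2a encodes in zebrafish, is a transcription factor that turns on genes of detoxification and antioxidant defence. Keap1 holds it in the cytoplasm and marks it for breakdown until reactive compounds or oxidants modify Keap1, and zebrafish have a pair of Keap1 genes, keap1a and keap1b. Nrf2 and small Maf proteins then bind antioxidant response elements of target genes such as nqo1, hmox1a, gclc, gclm and prdx1, and in mammals NQO1 is also induced through the aryl hydrocarbon receptor. Superoxide dismutase and catalase remove superoxide and hydrogen peroxide, which developing germ cells and steroid-producing cells of the testis also make.

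Markers of tissues other than the testis differed between arrays. Over all probes, DMSO 1 correlated at 0.918 on average with the remaining arrays, against 0.952 to 0.961 for every other array. Its mean over 7 measured intestine markers of 8 listed was 11.34 on the log2 scale, against 10.85 in TCDD 2, 9.55 in TCDD 3, 7.57 in TCDD 4 and 6.34 to 6.76 in the other arrays, while its means for germ cell markers (9.44, against 10.77 to 11.87 elsewhere) and Leydig cell markers (8.03, against 9.53 to 10.44 elsewhere) were the lowest of the 10 arrays. TCDD 5 had the highest mean over 8 measured hepatocyte markers of 10 listed, at 11.12, against 7.17 to 8.90 in the other arrays. Summed over each list, the intestine markers ranged from 44.7 to 76.0 in TCDD arrays and from 44.4 to 79.4 in DMSO arrays, and the hepatocyte markers from 60.9 to 89.0 in TCDD arrays and from 57.4 to 65.1 in DMSO arrays. The exocrine pancreas markers, 9 measured of 10 listed, averaged 12.97 in DMSO 1, 12.03 in TCDD 2, 11.25 in TCDD 4 and 8.38 to 10.07 in the other arrays. Skeletal muscle markers, 7 measured of 8 listed, averaged 6.28 to 6.51 in TCDD arrays and 6.47 to 7.63 in DMSO arrays, and all 7 had a lower mean in TCDD. All measured hepatocyte (8), intestine (7), exocrine pancreas (9), Leydig cell (6), Sertoli cell (6) and germ cell (6) markers had a higher mean in TCDD. So did 5 of 6 sperm, 5 of 6 oocyte, 4 of 5 erythrocyte and 6 of 7 macrophage and granulocyte markers. Over all genes 54.6% had a higher mean in TCDD. Germ cell means were 10.77 to 11.70 in TCDD arrays, 9.44 in DMSO 1 and 11.16 to 11.87 in the other DMSO arrays. Sperm marker means were 7.92 in DMSO 1 and 9.81 to 10.25 in the other DMSO arrays. For both lists the higher mean in TCDD rested on DMSO 1. Oocyte markers, 6 measured of 6 listed, averaged 7.63 in TCDD 3, 7.83 in TCDD 4 and 6.62 to 7.06 in the other arrays. Of the testis lists, Sertoli cell means were 10.17 to 11.37 in TCDD arrays and 9.76 to 10.68 in DMSO arrays, and sperm marker means 9.63 to 10.14 in TCDD arrays and 7.92 to 10.25 in DMSO arrays. In DMSO 1 the Leydig cell gene insl3 was at 7.09 and the sperm gene ropn1l at 6.32, against an insl3 level of at least 11.13 and a ropn1l level of at least 9.23 in all others, and the sperm gene tppp2 was dim in every array (6.07 to 7.02). The part of these tissues in the results that follow was not tested. In bulk tissue fewer cells of a type and less RNA per cell cannot be told apart.

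For none of the 10 genes did the difference between TCDD and DMSO testes pass the test. By limma with Benjamini-Hochberg adjustment over all genes, 0 of 10 passed an adjusted p of 0.05, as did 0 of 19260 genes (0%), and 0 of 10 had an unadjusted p under 0.05, against 478 of all genes (2.48%). The groups overlapped for every member, while they did not overlap for 0.493% of all genes. Of the members 5 lay above 0 and 5 below, against 54.6% of all genes above 0, and the median difference, TCDD minus DMSO, was 0.03 over the members and 0.02 over all genes. Over the 10 arrays nfe2l2a, keap1a, hmox1a and cat were among the more variable genes, through 1 array each for hmox1a (TCDD 5) and nfe2l2a (DMSO 1), while keap1b, gclc and gclm were among the least variable.

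**Figure D1:**
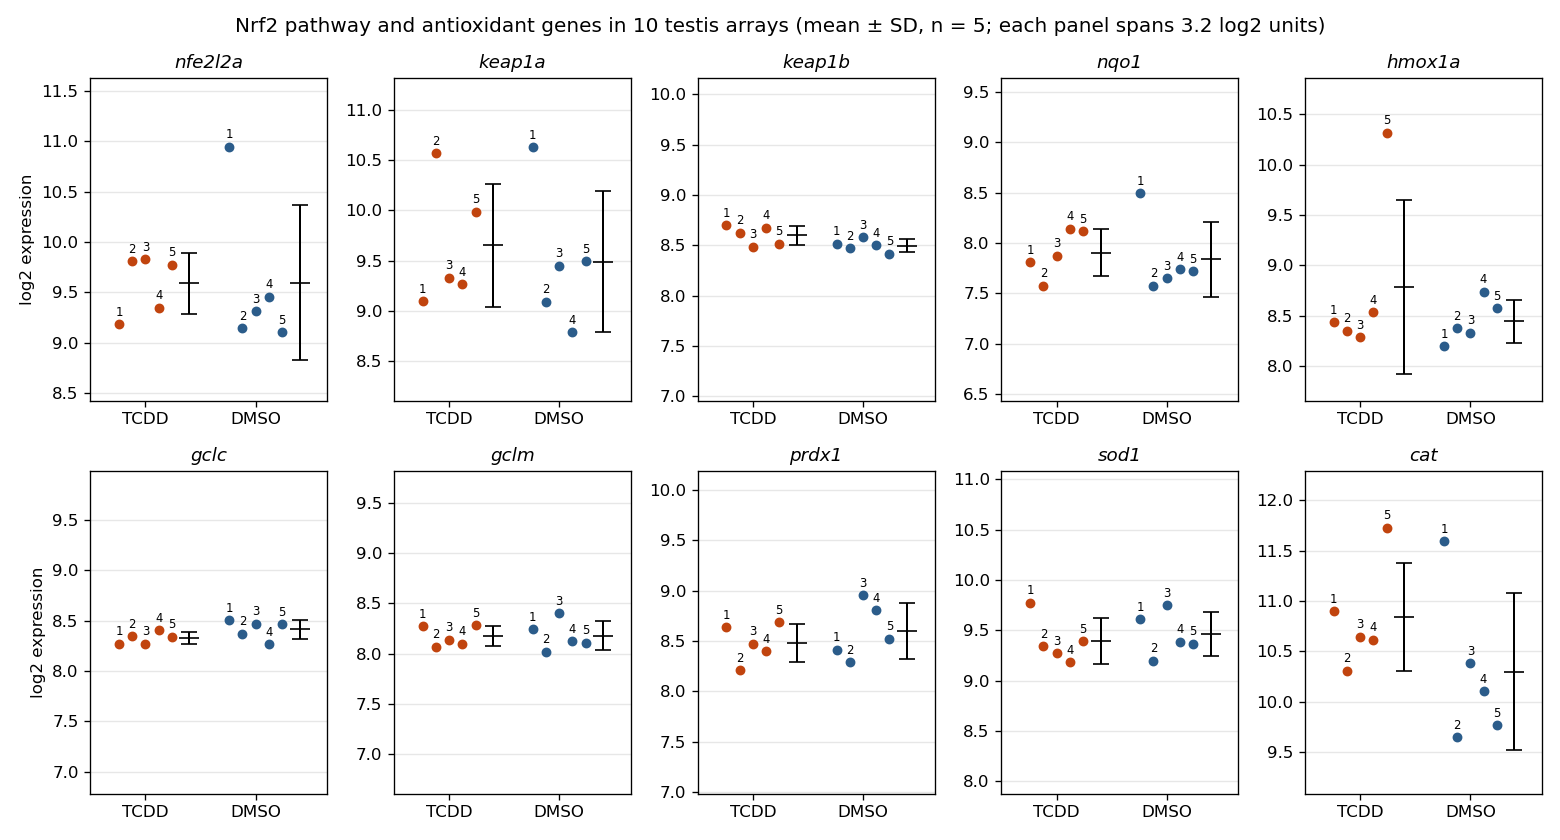
Log2 expression of the 10 genes in each array, with TCDD arrays on the left and DMSO arrays on the right of each panel. Points carry the replicate number and bars give the mean ± SD of 5 arrays. DMSO 1 is the highest array for nfe2l2a, keap1a, nqo1 and gclc, and TCDD 5 is the highest for hmox1a and cat.

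Among the regulators, nfe2l2a had the same mean level in both groups. nfe2l2a (probe 13257493) was at 9.18, 9.81, 9.83, 9.35 and 9.77 in TCDD 1 to 5, and at 10.95, 9.14, 9.31, 9.46 and 9.10 in DMSO 1 to 5. DMSO 1 was more than 1 log2 unit above every other array, and 3 of 5 TCDD arrays lay above the DMSO mean. The TCDD arrays averaged 9.59 ± 0.30 and the DMSO arrays 9.59 ± 0.77 (SD, n = 5 each), which differed by -0.0045 (95% CI -0.73 to 0.72, limma adjusted p = 1.00). Without DMSO 1, the array with the highest intestine markers, the DMSO mean was 9.25 ± 0.16 (n = 4) and the difference was 0.33 (95% CI -0.03 to 0.70, limma adjusted p = 0.716, within a range of 0.715 to 1.00 over all alternatives). Leaving out DMSO 1 left intestine marker means of 6.39 to 10.85 in TCDD arrays and 6.34 to 6.66 in DMSO arrays. TCDD 2 and TCDD 3, the highest TCDD arrays for nfe2l2a, were the highest in these means. The part of the intestine transcripts in the difference of nfe2l2a was not tested.

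keap1a and keap1b, the genes of the inhibitors of Nrf2, differed in how much they varied. keap1a (probe 13091388) was at 9.10, 10.57, 9.33, 9.27 and 9.99 in TCDD 1 to 5, and at 10.63, 9.10, 9.45, 8.79 and 9.49 in DMSO 1 to 5. It was high in DMSO 1 and TCDD 2, the arrays with the most intestine and exocrine pancreas marker signal, and next in TCDD 5. The mean of the intestine markers was 6.76 in TCDD 5. It was 9.55 in TCDD 3, which followed DMSO 1 and TCDD 2 in that mean and had keap1a at 9.33. The groups of keap1a overlapped over most of their range. Group averages were 9.65 ± 0.61 for TCDD and 9.49 ± 0.70 for DMSO (SD, n = 5 each), which differed by 0.16 (95% CI -0.65 to 0.97, limma adjusted p = 1.00). The difference was 0.44 without DMSO 1, -0.07 without TCDD 2 and 0.21 (95% CI -0.28 to 0.71) without both. The part of other tissue in the level of keap1a was not tested.

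keap1b (probe 13217752) was at 8.70, 8.62, 8.49, 8.67 and 8.52 in TCDD 1 to 5, and at 8.52, 8.47, 8.58, 8.50 and 8.42 in DMSO 1 to 5. All 10 arrays lay within 0.28 log2 units, and only 0.836% of genes had a smaller SD over the arrays. Of the TCDD arrays 4 of 5 lay above the DMSO mean. The TCDD arrays averaged 8.60 ± 0.09 and the DMSO arrays 8.50 ± 0.06 (SD, n = 5 each), which differed by 0.10 (95% CI -0.11 to 0.31, limma adjusted p = 1.00, exact two-sided permutation p = 0.0714). The upper bound of the interval corresponds to a 1.24-fold higher level of keap1b in TCDD. TCDD 2 and DMSO 1, which had the most keap1a, were at 8.62 and 8.52 for keap1b, within the range of the other arrays.

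Among the target genes of Nrf2, nqo1 (probe 13231778), a quinone reductase gene, was at 7.81, 7.58, 7.88, 8.14 and 8.12 in TCDD 1 to 5, and at 8.50, 7.58, 7.65, 7.74 and 7.72 in DMSO 1 to 5. DMSO 1 was the highest array of all, and the other 4 DMSO arrays lay within a narrow range at the lower end. Group averages were 7.90 ± 0.23 for TCDD and 7.84 ± 0.37 for DMSO (SD, n = 5 each), which differed by 0.07 (95% CI -0.35 to 0.48, limma adjusted p = 1.00), or 1.05-fold. Without DMSO 1 the difference was 0.23 (95% CI -0.07 to 0.53), with a DMSO mean of 7.67 ± 0.08 (n = 4). Without both DMSO 1 and TCDD 2 it was 0.31 (95% CI 0.04 to 0.58, limma adjusted p = 0.793, within a range of 0.709 to 1.00 over all alternatives), and the remaining 4 TCDD arrays all lay above the remaining 4 DMSO arrays. In that smaller comparison 3.56% of all genes had groups that did not overlap. DMSO 1 was the highest DMSO array for nqo1 and TCDD 2 the lowest TCDD array. The separation thus follows in part from leaving them out. Without TCDD 5 as well the difference was 0.27 (95% CI -0.04 to 0.57), again without overlap, as for 6.28% of all genes. Leaving out DMSO 1 alone left intestine marker means up to 10.85 in TCDD arrays and 6.66 in DMSO arrays. The part of other tissue in nqo1 was not tested.

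hmox1a (probe 13167255) encodes heme oxygenase, the enzyme that opens the heme ring and releases iron. It was at 8.44, 8.35, 8.29, 8.54 and 10.32 in TCDD 1 to 5, and at 8.20, 8.38, 8.33, 8.74 and 8.57 in DMSO 1 to 5. TCDD 5 was the single high array, and the other 9 lay together. The TCDD arrays averaged 8.79 ± 0.86 and the DMSO arrays 8.44 ± 0.21 (SD, n = 5 each), which differed by 0.34 (95% CI -0.44 to 1.12, limma adjusted p = 1.00). Without TCDD 5 the TCDD mean was 8.40 ± 0.11 (n = 4) and the difference was -0.04 (95% CI -0.35 to 0.27). TCDD 5 was also the array with the most hepatocyte transcripts, and their part in its hmox1a level was not tested. Its erythrocyte markers, 5 measured of 7 listed, averaged 7.48, within the range of 7.08 to 8.88 of the other arrays, and its macrophage and granulocyte markers, 7 of 8, averaged 7.66, within their range of 7.43 to 8.31. The genes of this last list did not move together. In TCDD 5 lyz (6.76) and mpx (6.56) were at their lowest of the 10 arrays and spi1b (7.78) at its highest. csf1ra, cybb, coro1a and mpeg1.1 lay in between. The top of the range was TCDD 2, where mpx was at 10.83. The low level of lyz was shared by the TCDD arrays. It was 6.76 to 7.25 in TCDD and 7.43 to 8.39 in DMSO arrays. These groups did not overlap, as for 0.493% of all genes, or 0.395% counting only those lower in TCDD. This gene was singled out after its values were seen. Of the 7 genes of its list 6 had a higher mean in TCDD. The part of these cells in the hmox1a level was not tested. A second probe that the annotation assigns to both hmox1a and mcm5 was not used.

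The pair of genes for glutamate-cysteine ligase, which makes the first step of glutathione synthesis, was nearly flat across all arrays. gclc (probe 12994554), the gene of the catalytic subunit, was at 8.27, 8.35, 8.27, 8.41 and 8.34 in TCDD 1 to 5, and at 8.50, 8.37, 8.47, 8.26 and 8.47 in DMSO 1 to 5. Every TCDD array lay below the DMSO mean, but DMSO 4 was the lowest of all arrays and the groups overlapped. Group averages were 8.33 ± 0.06 for TCDD and 8.42 ± 0.10 for DMSO (SD, n = 5 each), which differed by -0.09 (95% CI -0.30 to 0.12, limma adjusted p = 1.00, exact two-sided permutation p = 0.127). Just 0.592% of all genes had a smaller SD over the 10 arrays. The interval bounds a change of gclc between 0.81-fold and 1.09-fold.

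gclm (probe 13244170), the gene of the modifier subunit, was at 8.27, 8.07, 8.14, 8.10 and 8.28 in TCDD 1 to 5, and at 8.25, 8.02, 8.40, 8.12 and 8.11 in DMSO 1 to 5. The TCDD arrays lay within the wider range of the DMSO arrays, with DMSO 3 highest and DMSO 2 lowest. The TCDD arrays averaged 8.17 ± 0.10 and the DMSO arrays 8.18 ± 0.15 (SD, n = 5 each), which differed by -0.0067 (95% CI -0.25 to 0.23, limma adjusted p = 1.00), and 3.28% of genes had a smaller SD. Its sign turned when any of several arrays was left out, between -0.05 and 0.05.

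Among the enzymes that remove peroxide and superoxide, prdx1 (probe 13086438), the gene of a peroxiredoxin that reduces hydrogen peroxide with electrons from thioredoxin, was at 8.64, 8.21, 8.47, 8.40 and 8.69 in TCDD 1 to 5, and at 8.41, 8.29, 8.96, 8.81 and 8.52 in DMSO 1 to 5. DMSO 3 and DMSO 4 were highest and TCDD 2 lowest. Group averages were 8.48 ± 0.19 for TCDD and 8.60 ± 0.28 for DMSO (SD, n = 5 each), which differed by -0.12 (95% CI -0.46 to 0.23, limma adjusted p = 1.00), and the difference was -0.03 without DMSO 3.

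sod1 (probe 12968802), the gene of the cytosolic copper and zinc superoxide dismutase, was at 9.77, 9.34, 9.27, 9.18 and 9.39 in TCDD 1 to 5, and at 9.61, 9.20, 9.75, 9.39 and 9.37 in DMSO 1 to 5. TCDD 1 and DMSO 3 were the highest arrays, close to each other, and the groups covered nearly the same range. The TCDD arrays averaged 9.39 ± 0.23 and the DMSO arrays 9.46 ± 0.22 (SD, n = 5 each), which differed by -0.07 (95% CI -0.40 to 0.26, limma adjusted p = 1.00), and the difference was 0.00143 without DMSO 3.

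cat (probe 13159950) encodes catalase, which breaks down hydrogen peroxide in peroxisomes, and it had the largest difference of the 10 genes over all 10 arrays. It was at 10.90, 10.31, 10.65, 10.62 and 11.73 in TCDD 1 to 5, and at 11.59, 9.65, 10.38, 10.10 and 9.77 in DMSO 1 to 5. All 5 TCDD arrays lay above the DMSO mean, but DMSO 1 was higher than every TCDD array except TCDD 5, and the other 4 DMSO arrays were at the lower end. Group averages were 10.84 ± 0.54 for TCDD and 10.30 ± 0.78 for DMSO (SD, n = 5 each), which differed by 0.54 (95% CI -0.29 to 1.37, limma adjusted p = 1.00, exact two-sided permutation p = 0.238), or 1.46-fold (95% CI 0.82 to 2.58).

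The value for cat depended on which arrays were counted. Without DMSO 1 the DMSO mean was 9.97 ± 0.33 (n = 4) and the difference was 0.87 (95% CI 0.27 to 1.46), with an unadjusted limma p of 0.00830 and an adjusted p of 0.716, within a range of 0.630 to 1.00 over all alternatives. In that comparison 3.66% of all genes were higher in TCDD at an unadjusted p under 0.05, and cat was the 1 member among them. With array weights, which lowered the share of DMSO 1, cat was again the 1 member with an unadjusted p under 0.05, against 7.27% of all genes. Without both DMSO 1 and TCDD 2 the difference was 1.00 (95% CI 0.42 to 1.57), with no overlap between 4 TCDD and 4 DMSO arrays. The exact two-sided permutation p was 0.0286, the smallest that 70 arrangements allow and the one that any gene without overlap has. In that comparison the groups did not overlap for 3.56% of all genes. There cat and nqo1 were the 2 members that were higher in TCDD at an unadjusted p under 0.05, against 3.77% of all genes. When TCDD 5, the array with the most hepatocyte transcripts, was left out as well, the difference was 0.75 (95% CI 0.31 to 1.18), with cat the 1 member at that level, against 3.72% of all genes. When TCDD 5 alone was left out it was 0.32 (95% CI -0.49 to 1.12). DMSO 1 was the highest DMSO array for cat and TCDD 2 the lowest TCDD array, so the separation without both follows in part from leaving them out. Leaving out DMSO 1 alone left intestine marker means up to 10.85 in TCDD arrays and 6.66 in DMSO arrays. The arrays left out were picked with their levels of other tissue already known. The part of that tissue in the level of cat was not tested.

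**Figure D2:**
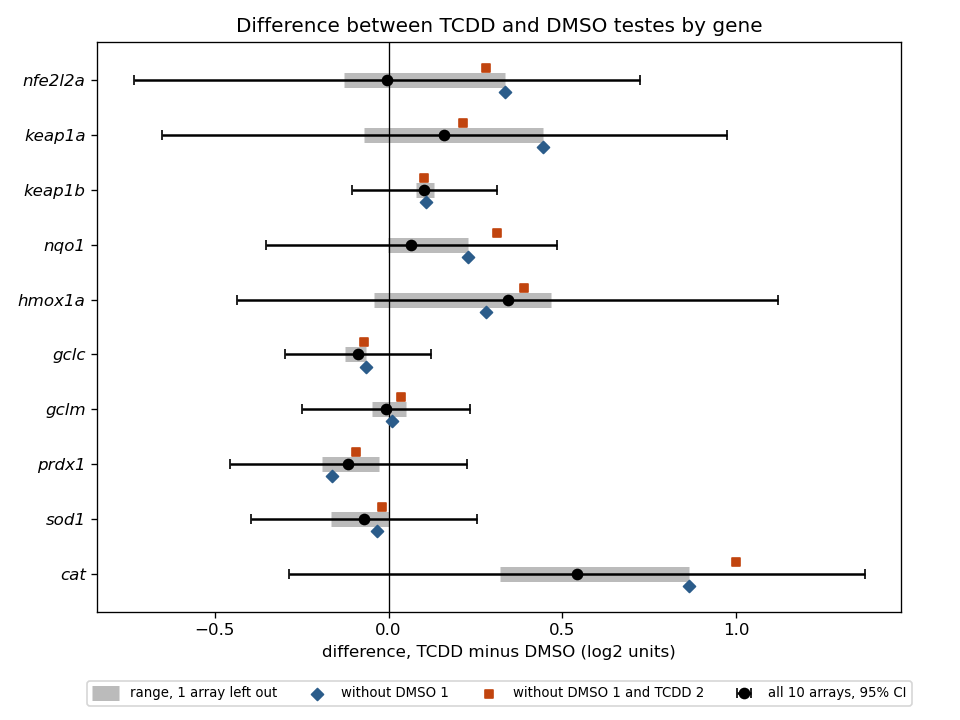
Difference between TCDD and DMSO testes for each gene in log2 units, where values right of 0 are higher in TCDD. Black points and lines give the difference over 10 arrays with its 95% CI, grey bars the range when 1 array is left out, and coloured marks the difference without DMSO 1 and without both DMSO 1 and TCDD 2. All 10 intervals include 0, the bars of keap1b, gclc and gclm are short, and cat moves to 0.87 and 1.00.

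The members differed widely in how much they varied over the arrays. The SD over 10 arrays was 0.69 for cat, 0.63 for keap1a, 0.62 for hmox1a and 0.55 for nfe2l2a, which placed them above 91.8%, 89.6%, 89.3% and 86.0% of all genes. For hmox1a and nfe2l2a the spread rested on 1 array. Without TCDD 5 the SD of hmox1a was 0.17, above 13.2% of all genes, and without DMSO 1 that of nfe2l2a was 0.29, above 65.7%. This check was chosen after the values were seen, and no other single array moved the SD of a member by over 1.5 times. It was 0.30 for nqo1, 0.23 for prdx1 and 0.21 for sod1, near or below the median of 0.28 over all genes. It was 0.12 for gclm, 0.09 for keap1b and 0.09 for gclc. None of the flat genes was dim, since the mean levels of gclc, gclm and keap1b lay above 78.3%, 75.5% and 80.7% of all probes. nqo1 was the dimmest member, above 70.7% of all probes, and cat the brightest, above 97.1%.

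The high and low arrays were not the same for all members. DMSO 1 was the highest array for 4 members, nfe2l2a, keap1a, nqo1 and gclc, and the lowest for 1, hmox1a. TCDD 5 lay above the 10-array median for 9 members, all but gclc, and DMSO 2 lay above it for 1 member, gclc. After quantile normalization these counts were 7 and 2, and after median centring 10 and 0.

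Over the 45 pairs of members the median Pearson r across 10 arrays was 0.21, where all genes of an array share its mixture of tissue. By a two-sided permutation test of Pearson's r with 100000 resamples, 6 pairs had an unadjusted p under 0.05. The median r and this share were not computed for pairs of other genes, so neither can be set against a background. After Benjamini-Hochberg adjustment 0 of 45 passed, for Pearson's r as for Spearman's rho. The pairs under 0.05 by rho were partly others. They included gclm with cat (permutation p = 0.0347) and prdx1 with sod1 (permutation p = 0.0389), but no pair of nfe2l2a. The pair with the highest r was gclm with sod1 (r = 0.84, permutation p = 0.00226, adjusted 0.102, and rho = 0.82, permutation p = 0.00589, adjusted 0.202). Its r was 0.91 without TCDD 5 and DMSO 3, the arrays farthest from the median of gclm, and 0.83 without DMSO 1. nqo1 with cat followed (r = 0.80, permutation p = 0.00516, adjusted 0.116, and rho = 0.76, permutation p = 0.0153, adjusted 0.230), with an r of 0.85 without TCDD 4 and DMSO 1, the arrays farthest from the median of nqo1. nfe2l2a with keap1a (r = 0.75, permutation p = 0.00993, adjusted 0.149, and rho = 0.49, permutation p = 0.156, adjusted 0.765) had an r of 0.73 without TCDD 3 and DMSO 1, the arrays farthest from the median of nfe2l2a, and 0.58 without DMSO 1 alone. gclm with prdx1 (r = 0.74, permutation p = 0.0140, adjusted 0.158, and rho = 0.79, permutation p = 0.00898, adjusted 0.202) had an r of 0.46 without TCDD 5 and DMSO 3. nfe2l2a with nqo1 rested largely on DMSO 1 (r = 0.73, permutation p = 0.0244, adjusted 0.201, and rho = 0.45, permutation p = 0.191, adjusted 0.765). Its r was 0.26 without DMSO 1 alone and 0.23 without TCDD 3 and DMSO 1. The sixth pair with an unadjusted p under 0.05 was nfe2l2a with cat (r = 0.68, permutation p = 0.0268, adjusted 0.201, and rho = 0.59, permutation p = 0.0820, adjusted 0.615), with an r of 0.56 without the same 2 arrays. gclc and gclm, whose proteins form 1 enzyme, had an r of 0.23 (rho = 0.04, permutation p = 0.525 and 0.918, adjusted 0.954 and 0.996), which was -0.39 without DMSO 1 and DMSO 3. keap1a and keap1b had an r of 0.03 (rho = 0.07, permutation p = 0.933 and 0.865, adjusted 0.954 and 0.996), which was -0.15 without TCDD 2 and DMSO 1.

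**Figure D3:**
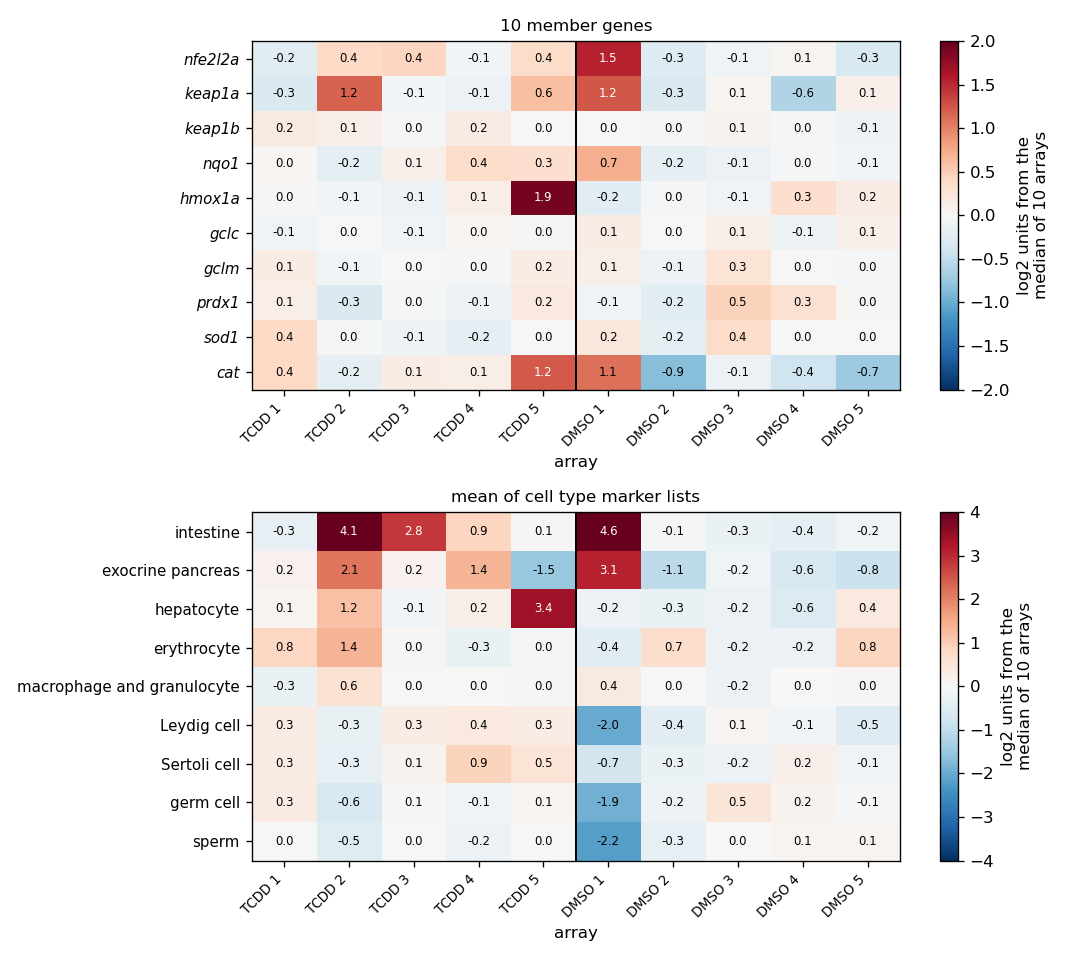
Distance of each array from the median of the 10 arrays in log2 units, with TCDD arrays left of the vertical line and DMSO arrays right of it. The upper panel gives the 10 genes and the lower panel the means of cell type marker lists on a wider colour scale. DMSO 1 is high for nfe2l2a, keap1a, nqo1 and cat together with intestine and pancreas markers, and TCDD 5 is high for hmox1a and cat together with hepatocyte markers.

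For the 3 members with the highest SD, the genes with the most similar pattern were taken by Pearson r over the 10 arrays, among all named genes. cat was most similar to gnpat2 (r = 0.97), sema4bb (0.97), nudt19 (0.95) and hopx (0.94), and these were 0.97, 0.97, 0.95 and 0.93 without DMSO 1. gnpat2, for example, was at 7.32, 7.10, 7.25, 7.39 and 7.77 in TCDD 1 to 5, and at 7.68, 6.73, 7.21, 6.85 and 6.85 in DMSO 1 to 5, high in TCDD 5 and DMSO 1 as cat was. keap1a was most similar to rasal3 (r = 0.99), slc13a5a (0.96), tmc5 (0.95) and mapk12a (0.95), and these were 0.99, 0.94, 0.93 and 0.94 without DMSO 1. tmc5 was at 10.00 in TCDD 2 and 9.79 in DMSO 1, against 7.50 to 8.71 in the other arrays. Without DMSO 1 the high array TCDD 2 of keap1a and the high array TCDD 5 of cat stayed in. The r without these arrays was not computed. hmox1a was most similar to csdc2b (r = 0.98), a2m2f (0.97), slc25a48 (0.97) and igfals (0.96). All of these were highest in TCDD 5, the single high array of hmox1a, and their r without TCDD 5 was not computed. igfals, the gene of a binding partner of insulin-like growth factors in plasma that the liver makes in mammals, was at 10.77 in TCDD 5 and between 6.54 and 7.37 in all others.

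Outside the 10 members, 6 lists of related genes held 126 genes, of which 104 were measured. By limma 0 of 104 passed an adjusted p of 0.05, and 1 had an unadjusted p under 0.05, against 2.48% of all genes. The median difference was 0.04 over the 104 genes, against 0.02 over all genes. Of the 104 genes 65 lay above 0, against 54.6% of all genes, a share that also stands beside the list counts below. The list medians ran from -0.00061 for glutathione synthesis and recycling to 0.08 for heme breakdown and iron storage. These medians moved with single arrays. When 1 array was left out they ran from 0.03 (without DMSO 5) to 0.10 (without DMSO 1) for the regulators, from -0.04 (without TCDD 3) to 0.04 (without DMSO 1) for glutathione and from -0.03 (without DMSO 5) to 0.10 (without TCDD 2) for thioredoxin and peroxiredoxin. They ran from -0.06 (without DMSO 5) to 0.07 (without TCDD 3) for superoxide dismutases, oxidases and copper delivery, from 0.03 (without DMSO 2) to 0.10 (without TCDD 4) for heme and iron, and from -0.0070 (without TCDD 1) to 0.20 (without DMSO 3) for NADPH supply. Over the 104 genes the median was -0.00032 without DMSO 5, with 52 above 0.

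The list of regulators of Nrf2 also held genes of the Nrf2 family, nfe2l2b, nfe2l1a, nfe2l1b and nfe2l3. nfe2l2b averaged 6.85 in TCDD and 6.94 in DMSO arrays, a difference of -0.09 (95% CI -0.40 to 0.22). The list had 17 measured genes, 13 of them above 0, a median of 0.07 and 0 with an unadjusted p under 0.05. Those with the smallest p were gsk3bb, the gene of a kinase that in mammals marks Nrf2 for breakdown apart from Keap1, with averages of 7.58 ± 0.50 over TCDD and 7.15 ± 0.48 over DMSO arrays (SD, n = 5 each), and mafgb, a small Maf gene, at 7.39 ± 0.13 in TCDD and 7.53 ± 0.08 in DMSO. Their differences were 0.43 (95% CI -0.18 to 1.05) and -0.14 (95% CI -0.37 to 0.08). gsk3bb differed by 0.24 without TCDD 4.

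Glutathione genes were split evenly, with 11 of 23 above 0 and 1 with an unadjusted p under 0.05, which was lower in TCDD. This was slc7a11, the cystine importer that supplies cysteine for glutathione, with averages of 5.07 ± 0.37 over TCDD and 5.63 ± 0.47 over DMSO arrays (SD, n = 5 each). It was at 4.96, 5.33, 4.75, 5.57 and 4.73 in TCDD 1 to 5, and at 6.14, 6.02, 5.33, 5.01 and 5.64 in DMSO 1 to 5. The groups overlapped, with DMSO 1 and DMSO 2 highest and TCDD 5 and TCDD 3 lowest. The difference was -0.56 (95% CI -1.102 to -0.014, limma adjusted p = 1.00), and -0.43 without DMSO 1. slc7a11 was dim, above 23.8% of all probes. ggt1a, a gene of extracellular glutathione breakdown, differed by -0.30 (95% CI -0.65 to 0.05), and by -0.19 without TCDD 5.

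The thioredoxin and peroxiredoxin list had 11 of 19 genes above 0, a median of 0.02 and 0 with an unadjusted p under 0.05. Its genes with the smallest p were msrb1b, a methionine sulfoxide reductase gene, with a difference of -0.17 (95% CI -0.41 to 0.06), and prdx5, a peroxiredoxin gene, with 0.27 (95% CI -0.12 to 0.67). Among superoxide dismutases, oxidases and copper delivery 8 of 12 lay above 0, with a median of 0.03 and 0 with an unadjusted p under 0.05. The copper chaperone gene atox1 differed by -0.23 (95% CI -0.83 to 0.37), and by -0.03 without DMSO 1, and park7, the gene of a redox-sensitive chaperone, by -0.15 (95% CI -0.59 to 0.28), and by 0.019 without TCDD 2.

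Heme and iron genes had 13 of 18 above 0, a median of 0.08 and 0 with an unadjusted p under 0.05. tfr2, a transferrin receptor gene, averaged 8.38 ± 0.55 over TCDD and 7.83 ± 0.30 over DMSO arrays (SD, n = 5 each), differing by 0.54 (95% CI -0.02 to 1.103), which was 0.34 without TCDD 5. alas1, the gene of the first enzyme of heme synthesis, was at 10.63 ± 0.49 in TCDD and 10.17 ± 0.27 in DMSO, a difference of 0.46 (95% CI -0.05 to 0.97), which was 0.27 without TCDD 2. The list also held the 1 gene of the 104 (0.962%) whose groups did not overlap, against 0.493% of all genes. This was fth1a, a ferritin heavy chain gene, which was singled out after its values were seen. fth1a was at 11.28, 11.04, 11.06, 11.09 and 11.09 in TCDD 1 to 5, and at 10.89, 10.71, 10.98, 11.02 and 11.03 in DMSO 1 to 5. The margin between the lowest TCDD array and the highest DMSO array was under 0.01. Its difference was 0.18 (95% CI -0.05 to 0.42, limma adjusted p = 1.00, exact two-sided permutation p = 0.00794, the smallest that 5 against 5 arrays allow and the one that any gene without overlap has).

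Genes of NADPH supply, which feeds reduced glutathione and thioredoxin, had 9 of 15 above 0, a median of 0.04 and 0 with an unadjusted p under 0.05. me3, a malic enzyme gene, averaged 8.69 ± 0.36 over TCDD and 8.24 ± 0.50 over DMSO arrays (SD, n = 5 each), differing by 0.45 (95% CI -0.11 to 1.01), and nadka, an NAD kinase gene, differed by 0.22 (95% CI -0.16 to 0.60). DMSO 1 was the lowest array for both, and without it the differences were 0.27 and 0.08.

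**Figure D4:**
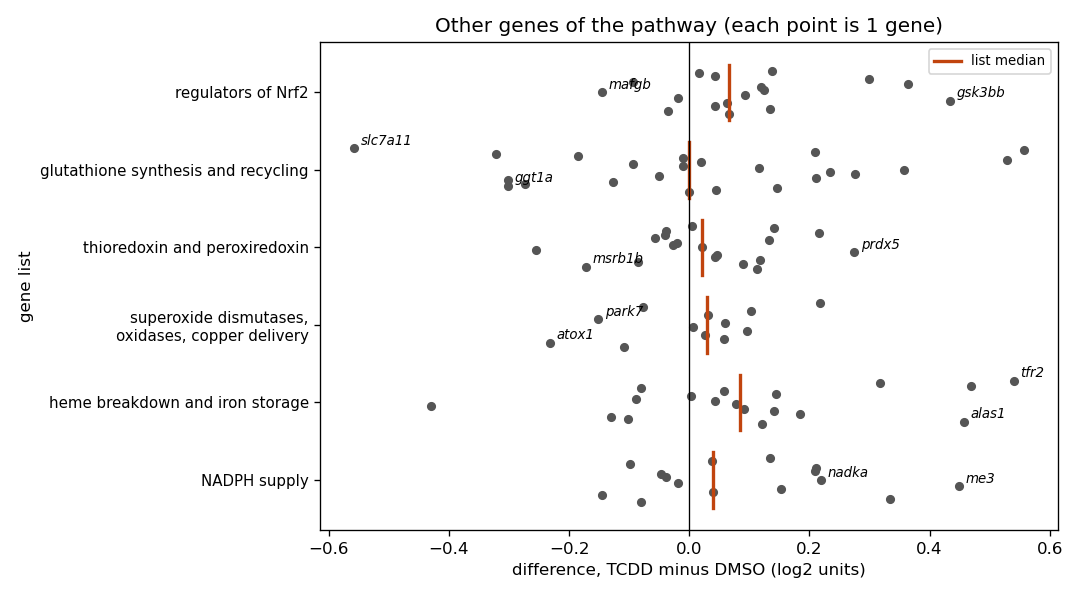
Difference between TCDD and DMSO testes in log2 units for 104 other genes of the pathway, 1 point per gene and 1 row per list, where values right of 0 are higher in TCDD. Red lines mark list medians, which lie between -0.00061 and 0.08, and the 2 genes with the smallest p of each list are named.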

How the data were processed

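The authors deposited 1 processed value per probe and array, treated here as log2 expression because the values run from 1.25 to 14.6 with array medians of 6.71 to 6.87. How background was corrected and arrays were normalized, and the logarithm's base, was not given in the sources used here. Each column carried a labelled sample, leaving 0 unused. Precision is limited by the number of arrays, and the median standard error of a difference was 0.177.

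Of 75212 probes, 20806 had 1 gene symbol in the platform's annotation, 855 several and 53551 none. Probes with several symbols named no gene. Of those with 1, 20323 matched a RefSeq gene (GRCz12tu) by Entrez identifier and 1 symbol was updated. The brightest probe of each gene was kept, which left 19260 genes. No coordinates were used, and the planned search of promoters was not run.

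The main test was limma 3.58.1, run in R 4.3.3 (empirical Bayes, group as the only term, Benjamini-Hochberg adjustment over all genes), and single genes also had an exact two-sided permutation test over every arrangement of 5 against 5 arrays. Calls were made below an adjusted p of 0.05. The fit was first tested on simulated data. The permutation test of correlations between members was added after those correlations had been seen. Members and lists were chosen with earlier results of these data known. The text names all members, the 2 genes with the smallest p of each list, and the 4 genes most correlated with each of the 3 most variable members, apart from genes with provisional clone-type names. The labels number the fish as biological replicates. The same numbers occur in both groups without marking a shared animal or day, and the deviations of same-numbered arrays correlated at -0.58, -0.21, -0.03, -0.04 and 0.29, so the arrays were treated as unpaired.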

Additional observations from a re-analysis of the deposited data

Results flagged for a closer look

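Of 20 sets of 5 arrays (10 genes in each group), 3 held an array far from the other 4 by Dixon's test, where chance gives about 1 in 20. The sets share the same 10 arrays and are not independent, so this rate cannot judge their count. nfe2l2a and nqo1 were both flagged for DMSO 1. For hmox1a, TCDD 5 was at 10.32, against 8.29 to 8.54 in the other TCDD arrays. For nfe2l2a, DMSO 1 was at 10.95, against 9.10 to 9.46 in the other DMSO arrays. For nqo1, DMSO 1 was at 8.50, against 7.58 to 7.74 in the other DMSO arrays.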

How the results depend on the processing

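Of the 10 genes, 0 passed a limma adjusted p of 0.05 under any alternative run, and the groups of 0 members ceased to overlap when single arrays were left out or arrays were rescaled. keap1b, gclc, prdx1 and cat kept their sign under every alternative run. With array weights nfe2l2a differed by 0.339 and gclm by 0.0302, with median centring by 0.0367 and 0.0344, without both DMSO 1 and TCDD 2 by 0.28 and 0.0356, and without DMSO 1, TCDD 2 and TCDD 5 by 0.20 and 0.0071, where hmox1a was at -0.0862. When single arrays were left out the differences ranged from -0.13 to 0.33 for nfe2l2a, -0.0698 to 0.444 for keap1a, -0.00034 to 0.23 for nqo1, -0.0415 to 0.467 for hmox1a, -0.0473 to 0.0489 for gclm and -0.17 to 0.00143 for sod1. The cause of these turns was not tested. The count of all genes at an unadjusted p under 0.05, 478 over 10 arrays, ranged from 289 (without DMSO 2) to 1280 (without DMSO 1) when single arrays were left out. It was 1400 with array weights, 1190 without both DMSO 1 and TCDD 2, 1138 without TCDD 5 as well, and 114 with at least a 1.5-fold difference required. A plain t-test gave 574 and 0 members. The count of members at that level, 0 over 10 arrays, was 1 with array weights (cat, against 7.27% of all genes), 0 to 1 when single arrays were left out, 2 without both arrays (cat and nqo1) and 1 without TCDD 5 as well. The count of all genes past the adjusted threshold was 0 to 1 when single arrays were left out and 1 without both DMSO 1 and TCDD 2. The replicate number as a block changed no call and gave 398 genes at an unadjusted p under 0.05. Each member has 1 probe, so that averaging probes left its values unchanged.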

Other observations

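Without DMSO 1, which had the most intestine transcripts, 7 of the 104 other pathway genes had a higher level in TCDD at an unadjusted limma p under 0.05 and 0 a lower one, against 3.66% and 2.99% of all genes. The adjusted p of each was 0.716. Of these 7 genes 4 belonged to the 18 of heme breakdown and iron storage. slc40a1, the iron exporter ferroportin, averaged 8.62 ± 0.26 in TCDD (n = 5) and 8.12 ± 0.08 in DMSO (n = 4), a difference of 0.50 (95% CI 0.19 to 0.81). aco1, the gene of an iron-responsive RNA-binding protein, averaged 9.84 ± 0.33 in TCDD and 9.33 ± 0.16 in DMSO, a difference of 0.51 (95% CI 0.13 to 0.89). Without DMSO 1 the groups did not overlap for 4 of the 104 genes (3.85%), slc40a1, aco1, fth1a and the small Maf gene mafk, against 2.51% of all genes. mafk differed by 0.35 (95% CI 0.08 to 0.62). The others at an unadjusted p under 0.05 were alas1 at 0.57, the ferritin gene fthl28 at 0.45, the glutathione peroxidase gene gpx1b at 0.65 and the xanthine dehydrogenase gene xdh at 0.54. Over all 10 arrays the differences were 0.14 for slc40a1, 0.12 for aco1 and 0.13 for mafk, with DMSO 1 at 9.89, 11.28 and 8.23 for these genes. The count of 7 depended on the arrays. With array weights 6 genes were higher and 1 lower, without mafk, gpx1b and xdh, against 3.83% and 3.44% of all genes. Without TCDD 5 alone 0 were higher or lower, against 0.665% and 1.14% of all genes. Without both DMSO 1 and TCDD 2, 7 were higher and 0 lower, against 3.77% and 2.41% of all genes. Of these 7, slc40a1, aco1, mafk, alas1 and fthl28 were also among the 7 above. Without TCDD 5 as well, 4 were higher and 1 lower, against 3.72% and 2.19% of all genes. The 4 higher genes included slc40a1 and fthl28 but not aco1, mafk or alas1. Leaving out DMSO 1 alone left intestine marker means of 6.39 to 10.85 in TCDD arrays and 6.34 to 6.66 in DMSO arrays. DMSO 1 was left out with its tissue mixture known, these genes were singled out after their values were seen, and the part of other tissue in them was not tested.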
